A study of Mus musculus with 10 samples.

Results

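The signal recognition particle (SRP) was examined through 10 genes of the 55487 in the RNA-seq tables of this series. They are Rn7s1 and Rn7s2, which encode the 7SL RNA of the particle, the 6 protein subunit genes Srp9, Srp14, Srp19, Srp54a, Srp68 and Srp72, and the SRP receptor genes Srpr and Srprb. The genes were chosen by name, matched by Ensembl gene ID to GENCODE vM21, and all 10 were found. The series maps R-loops in mouse embryonic stem cells of the line E14 by MapR and BisMapR and adds RNA-seq. Its other 7 samples are not analysed here. They are 2 BisMapR libraries, 2 MapR libraries, 1 BisMapR RNase A control, 1 MapR GST-MNase control and 1 MapR NBSS library. Every value below comes from the 3 RNA-seq replicates of untreated E14 cells. The cells were kept in medium with 15% serum, LIF, a GSK inhibitor at 3 µM and a MEK1/2 inhibitor at 1 µM. All 3 replicates belong to this 1 group, so no difference between conditions could be tested. The labels do not say whether they came from separate cultures, and the spread between them may therefore be technical.

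SRP delivers ribosomes that are making secreted and membrane proteins to the endoplasmic reticulum (ER). Its 7SL RNA, made by RNA polymerase III, is the scaffold on which the proteins sit. SRP9 and SRP14 form a heterodimer on the Alu domain, which slows elongation, while SRP19, SRP54, SRP68 and SRP72 bind the S domain, where SRP54 holds the signal sequence. At the ER membrane the particle meets a receptor of 2 GTPase subunits, encoded by Srpr and Srprb.

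Library totals ran from 5787357 to 11420425 estimated counts, the deposited read estimates per gene, which need not be whole numbers. All 8 embryonic stem cell markers examined reached a mean TPM of 1, with Nanog highest at 183 ± 29.9 TPM (SD, n = 3). TPM is a level per transcript length, scaled to the same total in each library. Of 8 fibroblast or feeder markers only Thy1, at 2.50 TPM, reached that level. Pdgfrb fell just short of it at a mean of 0.977 TPM, and Col3a1, Postn and Dcn had 0 counts in every replicate. No one of 8 endoderm, mesoderm and neural markers reached it. In bulk RNA, fewer cells of a type and less RNA per cell cannot be told apart.

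The 7SL genes are described first because the likeness of their sequences decides how far their separate values can be read. Rn7s1 (ENSMUSG00000099021, chromosome 12, 69159295 to 69159594, plus strand) and Rn7s2 (ENSMUSG00000099250, chromosome 12, 69361182 to 69361481, minus strand) are single-exon noncoding genes with 201587 bases between them (GRCm38). Their annotated RNAs have the same base at all 300 positions.

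The annotation held 8 near copies of this RNA, defined as genes whose transcript aligned to Rn7s1 with at least 80% identity over at least 200 nt. Of these, 5 had counts and 3 (Gm24812, Gm22876 and Gm22649) had 0 counts in every replicate. The 5 were Rn7s6, Gm24105, Gm24514, Gm26461 and Gm23153. Together the near copies held 53.5, 30.3 and 57.6 estimated counts in replicates 1, 2 and 3, which was 0.0384%, 0.029% and 0.0449% of the counts of Rn7s1 and Rn7s2. In estimated counts the 7SL signal therefore lay almost wholly in these 2 genes. Rn7s6, for example, matched Rn7s1 at 98.6% over 214 nt, so reads within such shared stretches were placed largely by estimation. Only annotated transcripts were searched, so reads from unannotated copies could not be told apart.

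Outside the RNA the loci differ. The 100 bases before each start and the 40 bases after each end are printed from the GRCm38 genome in the direction of transcription. Capitals in the upstream stretches mark TGACGTCA, the palindromic consensus of the cAMP response element. Capitals in the downstream stretches mark positions at which the copies differ.
Rn7s1 upstream, chr12:69159195-69159294: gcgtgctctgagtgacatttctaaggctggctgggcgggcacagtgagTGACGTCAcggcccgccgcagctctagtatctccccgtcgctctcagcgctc
Rn7s2 upstream, chr12:69361482-69361581, minus strand: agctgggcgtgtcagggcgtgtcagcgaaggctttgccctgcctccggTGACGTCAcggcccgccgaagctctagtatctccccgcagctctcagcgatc
Rn7s1 downstream, chr12:69159595-69159634: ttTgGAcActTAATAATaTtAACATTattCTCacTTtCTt
Rn7s2 downstream, chr12:69361142-69361181, minus strand: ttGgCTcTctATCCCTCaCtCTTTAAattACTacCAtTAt

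Compared position by position, 58 of the 100 upstream bases were identical, the longest shared run being 19 bases, from 53 to 35 bases before the start. The TGACGTCA motif began 52 bases before the start in both genes. This motif, the only one searched and chosen after the sequences were seen, occurred in 1.79% of 32851 RefSeq promoter windows of 300 bases (GRCm38.p6, around annotated starts). It was found in 0 of the 6 protein members searched among those windows (Srp9, Srp14, Srp54a, Srp72, Srpr and Srprb). Srp19 and Srp68 were not among those searched, and members on chromosome 18, where Srp19 lies, were left out by rule. Downstream, 15 of 40 bases were identical and the third base was the first to differ. The run of T that ends the gene, a signal at which RNA polymerase III stops, was 5 bases long at Rn7s1 and 4 at Rn7s2, with 2 of them inside the annotated RNA.

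Rn7s1 had 19444.6, 6184.5 and 16361.6 estimated counts in replicates 1, 2 and 3, or 4397, 2126 and 5149 TPM. Rn7s2 had 119986.7, 98337.1 and 111725.9 estimated counts, or 27135, 33805 and 35163 TPM. Rn7s2 was the higher in each library and the ranges did not overlap. The log2 ratio of Rn7s2 to Rn7s1 TPM was 2.63, 3.99 and 2.77, a mean of 3.13 ± 0.75 (SD, n = 3), with replicate 2 apart from the other two. Rn7s1 accordingly took 13.9%, 5.92% and 12.8% of the summed 7SL counts. Because the annotated RNAs are identical, a read that lies within them cannot be assigned by its sequence. This split is the estimator's division and cannot be read as a measurement of 2 RNAs. Why it was unequal was not tested, and the annotation release the authors used is not given in the sources used here.

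**Figure D1:**
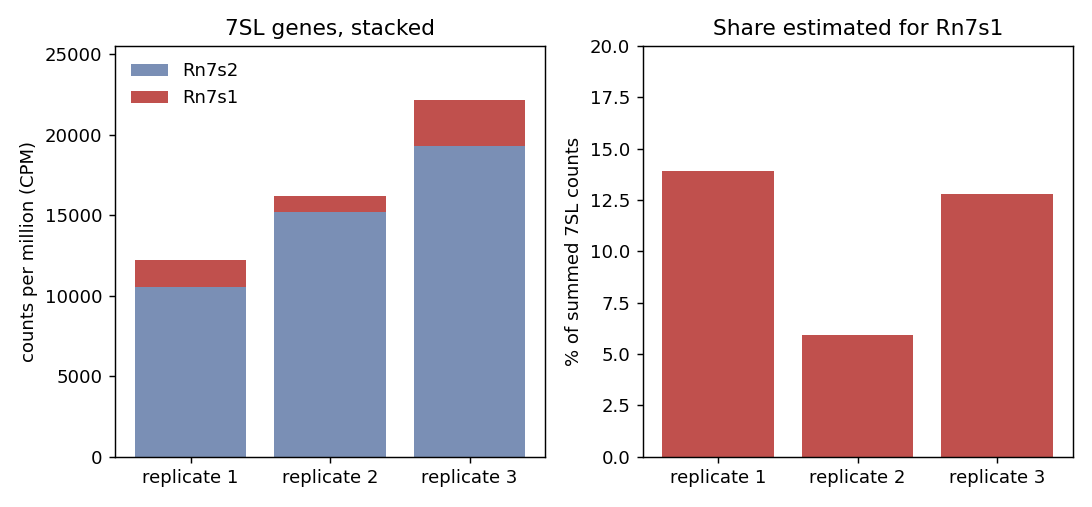
The left panel stacks CPM, counts scaled by the library total, of Rn7s2 and Rn7s1 for each replicate, and the right panel gives the percent of summed 7SL counts estimated for Rn7s1. The stacked height was lowest in replicate 1 and highest in replicate 3, while the Rn7s1 share was lowest in replicate 2, at 5.92%.

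Summed, the 7SL genes held 139431.3, 104521.7 and 128087.4 estimated counts. Their share of all counts was 1.22% in replicate 1, with a 95% binomial confidence interval (Wilson) from 1.215% to 1.227%. Replicate 2 stood at 1.62%, interval 1.606% to 1.626%, and replicate 3 at 2.21%, interval 2.201% to 2.225%. The mean was 1.68% ± 0.50 (SD, n = 3). Such intervals describe counting error alone, as reads copied by PCR are not separate molecules, and the replicates lay far outside one another's intervals. Counted as 1 gene, 7SL ranked 3 by mean count and 5 by mean TPM. Its TPM was 31533, 35931 and 40312, a mean of 35926 ± 4390 TPM (SD, n = 3).

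Other noncoding RNAs of RNA polymerase III give a scale for that level. Rn7sk, the RNA that holds the elongation factor P-TEFb inactive, had 60264, 53428 and 67105 TPM, above summed 7SL in each replicate, with a log2 ratio of 7SL to Rn7sk of -0.75 ± 0.18 (SD, n = 3). Rmrp, the RNA of RNase MRP, had 22303, 19323 and 26714 TPM, and the log2 ratio of 7SL to it was 0.66 ± 0.21 (SD, n = 3). Rpph1, the RNA of RNase P, had 13245, 12379 and 19154 TPM, with a log2 ratio of 1.29 ± 0.23 (SD, n = 3). Among these 4 the order Rn7sk, 7SL, Rmrp, Rpph1 held in every replicate, and the range of 7SL overlapped none of the other three. These 4 RNAs have similar annotated lengths, from 271 to 331 nt. The Y RNAs, which bind the Ro protein, are shorter, and their effective lengths of 1.8 to 6.7 nt make their TPM very uncertain. Rny1 (112 nt) had 47953, 45388 and 38913 TPM, above 7SL in replicates 1 and 2 and below it in replicate 3. Rny3 (102 nt) had 103402, 135291 and 94232 TPM, above 7SL in each replicate.

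The effective length, the number of start positions left to a fragment, was 163.1, 153.2 and 167.4 nt for 7SL, against an annotated 300 nt. Dividing by it in place of the annotated length raises the count per length 1.84, 1.96 and 1.79 times in replicates 1, 2 and 3. TPM is then scaled to the same total in each library, so these are not the factors by which TPM changes. For the protein members the same ratio was smaller, for example 1.2 to 1.23 for Srp14 and 1.04 to 1.05 for Srprb.

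The protein subunits were read at far lower levels per length. Of the Alu-domain pair, Srp9 (ENSMUSG00000026511, chromosome 1, 182124737 to 182132407, plus strand) had 342.6, 230.2 and 200.8 estimated counts and 9.19, 9.97 and 7.79 TPM. Srp14 (ENSMUSG00000009549, chromosome 2, 118475850 to 118479711, minus strand) had 245, 174 and 184 counts and 14.1, 14.3 and 14.7 TPM, the narrowest range of the 10 genes on this scale. Srp14 lay above Srp9 per length in each replicate, with a log2 ratio of Srp9 to Srp14 of -0.61, -0.52 and -0.91, a mean of -0.68 ± 0.20 (SD, n = 3). Without length scaling the direction turned, with a mean log2 ratio of 0.34 in counts, as the mean transcript length in replicate 1 was 1512.5 nt for Srp9 and 779.6 nt for Srp14. A processed pseudogene, Gm13736, matched Srp9 at 100% over 253 nt and held 56.4, 53.8 and 30.2 counts. The Srp9 counts were not whole numbers, so its level is uncertain to the extent that reads were divided between them. Another, Gm17968, lies within the Srp9 locus on the opposite strand, matched at 100% over 784 nt and had 0 counts in every replicate.

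Srp19 (ENSMUSG00000014504, chromosome 18, 34330847 to 34336599, plus strand), whose product prepares the S domain for SRP54, had 478, 317 and 283 counts. Its 21.9, 22.1 and 18.8 TPM made the highest mean of the 8 protein-coding members, 21.0 ± 1.84 TPM (SD, n = 3). All its counts were whole numbers, within 0.005, as were those of Srp14, Srp68, Srp72 and Srprb, so in these 5 genes no read was visibly divided with another gene.

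Srp68 and Srp72, the large proteins of the S-domain heterodimer, differed by a nearly constant factor. Srp68 (ENSMUSG00000020780, chromosome 11, 116245166 to 116274217, minus strand) had 12.8, 8.69 and 8.34 TPM from 792, 384 and 379 counts. Srp72 (ENSMUSG00000036323, chromosome 5, 76974683 to 76999937, plus strand) had 24.6, 16.6 and 17.8 TPM from 1739, 941 and 911 counts, the most counts of any protein member. The log2 ratio of Srp68 to Srp72 was -0.94, -0.93 and -1.09, a mean of -0.99 ± 0.09 (SD, n = 3), which is a ratio of 0.504. Both were highest in replicate 1 on the TPM scale, as were Srpr and Srprb. With the TMM scaling explained below, Srp68 and Srp72 were both highest in replicate 3.

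Srp54a (ENSMUSG00000073079, chromosome 12, 55080262 to 55115367, plus strand), a gene for the signal-binding GTPase, had the lowest mean TPM of the 10 genes, though it lay above Srprb in replicate 2. It had 243.3, 174 and 130.2 counts and 3.72, 4.88 and 3.26 TPM. That value covers only part of the SRP54 message, because the annotation places Srp54b (ENSMUSG00000112449, 55155104 to 55189573) and Srp54c (ENSMUSG00000079108, 55230168 to 55263836) after it on the same strand of chromosome 12. A Srp54a transcript matched Srp54b at 99.6% over 3644 nt and Srp54c at 99.5% over 3640 nt. Srp54b had 2.95, 2.74 and 1.42 TPM and Srp54c 11.7, 8.32 and 7.23 TPM.

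Srp54c was the highest of the 3 copies in each replicate. Srp54a held 20.3%, 30.6% and 27.4% of their summed TPM, a mean of 26.1% ± 5.28 (SD, n = 3), and Srp54c held 58.8% ± 5.93 (SD, n = 3). With so few distinguishing bases the division among copies is uncertain, and the sum is the safer reading. Summed, the 3 genes had 18.3, 15.9 and 11.9 TPM, a mean of 15.4 ± 3.24 TPM (SD, n = 3). By mean this would place SRP54 between Srpr and Srp14, though its range overlapped both and it lay below both in replicate 3. The effective length of Srp54a was 2415.5, 1876 and 2107.5 nt in replicates 1, 2 and 3, since it is weighted by the estimated isoforms, and this enters its TPM beside the count.

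The receptor subunits were unequal. Srpr (ENSMUSG00000032042, chromosome 9, 35200175 to 35247973, plus strand), the subunit that binds SRP54, had 25.6, 16.4 and 14.1 TPM from 1332.5, 634 and 598.4 counts. Srprb (ENSMUSG00000032553, chromosome 9, 103188032 to 103202137, minus strand), the membrane anchor, had 5.14, 4.10 and 3.32 TPM from 413, 229 and 186 counts. The log2 ratio of Srpr to Srprb was 2.32, 2.00 and 2.09, a mean of 2.14 ± 0.16 (SD, n = 3), or 4.39-fold, and the ranges did not overlap. Srpr overlaps Tirap, Foxred1 and Fam118b on the opposite strand, the last 2 named after their values were seen, with 1.22 to 7.51 TPM. The libraries were directional per the labels' protocols, but the strand setting of the counting is not given in the sources used here, so the level of Srpr is uncertain to that extent. A processed pseudogene, Gm6733, matched Srpr at 97.4% over 1285 nt and held 21.5, 9.02 and 10.6 counts. Srprb is overlapped on its own strand by Gm20425, an annotated protein-coding gene for which no counts or TPM were available. Whether this overlap bears on the level of Srprb was not tested.

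**Figure D2:**
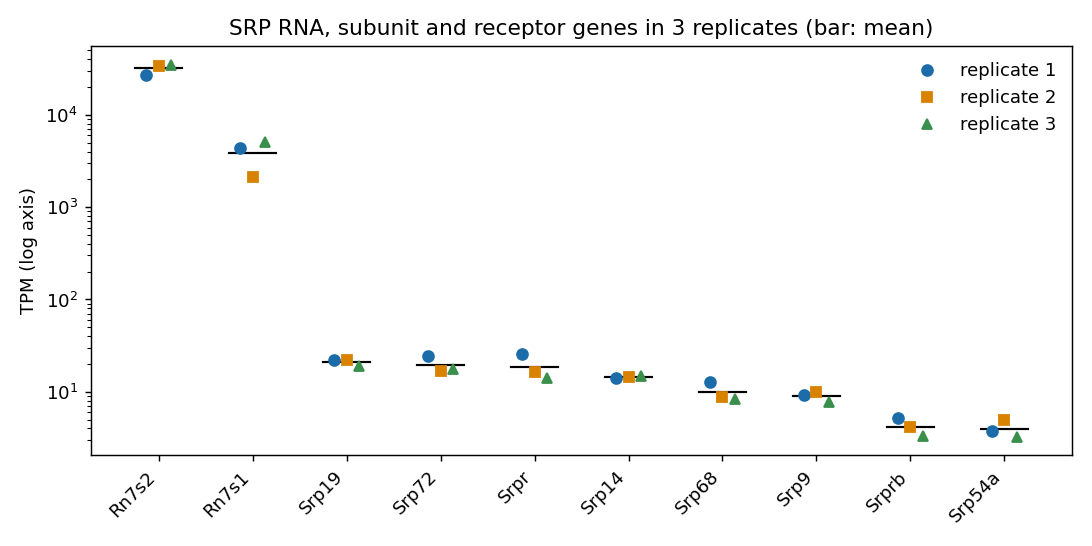
TPM of each of the 10 genes on a log axis, 1 point per replicate with a bar at the mean, in order of mean TPM. Both 7SL genes lie at 2126 TPM or more, and the protein-coding genes lie between 3.26 and 25.6 TPM, with overlapping ranges among Srp19, Srp72 and Srpr.

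In order of mean TPM the 10 genes were Rn7s2, Rn7s1, Srp19, Srp72, Srpr, Srp14, Srp68, Srp9, Srprb and Srp54a. Of the 9 neighbouring pairs in that order, 4 had ranges that did not overlap: Rn7s2 with Rn7s1, Rn7s1 with Srp19, Srp14 with Srp68, and Srp9 with Srprb. The first of these pairs is the estimator's division of 1 shared sequence, and the level of Rn7s1 in the second rests on the same division. The other 5 pairs changed places in at least 1 replicate and did not differ beyond their spread.

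Among the 6 protein subunits the highest exceeded the lowest by 2.48 ± 0.28 (SD, n = 3) in log2 TPM, or 5.57-fold. With the 3 SRP54 copies summed, an alternative chosen after seeing the data, the difference was 1.35. Srp54a, counted alone, was the lowest subunit in that range. Summed 7SL exceeded the median subunit by 11.20, 11.53 and 11.77 in log2 TPM, a mean of 11.50 ± 0.29 (SD, n = 3), or 2897-fold. The same log2 ratio was 8.68 in counts without length scaling.

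Against other genes the subunits were of middling to high level. The median mean TPM of the 9683 protein-coding genes that reached a mean TPM of 1 was 5.73, and 6 of the 8 protein members lay above it. Srp19 stood at percentile 85.6 of those genes, Srp72 at 84.7, Srpr at 83.7, Srp14 at 78.4, Srp68 at 68.2 and Srp9 at 65.0. Below the median were Srprb at percentile 38.7 and Srp54a at 36.8, while the 3 SRP54 copies summed would stand at 79.8. The median log2(TPM + 1) of the 6 subunits exceeded that of the 9683 genes by 0.83, 0.98 and 1.17, a mean of 0.99 ± 0.17 (SD, n = 3). The difference depended on the reference, at 0.08 against genes of at least 5 TPM and 0.22 with CPM, and it carries no test.

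Variation between replicates was tested next, by asking of each gene whether it spread more widely over the replicates than the dispersion trend allows at its abundance (goodness of fit in edgeR, Benjamini-Hochberg adjusted). Of 12577 genes tested, 232 or 1.84% passed an adjusted p of 0.05. All 10 members were tested and 1 passed, Rn7s1, with an adjusted p of 0.00507 by edgeR. On the log2 scale of CPM after TMM, a scaling that evens out library composition, Rn7s1 stood at 10.67, 9.86 and 11.59 in replicates 1, 2 and 3. Without replicate 2 its adjusted p was 0.885.

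The call did not carry over to the sum. With Rn7s1 and Rn7s2 added into 1 row, 7SL stood at 13.51, 13.94 and 14.56 on the same scale, and its adjusted p was 0.541 by edgeR (unadjusted 0.0298). Rn7s2 alone had an adjusted p of 0.553. Summed 7SL was lowest in replicate 1 and highest in replicate 3, a range of 1.05, against a median range of 0.34 over all genes tested.

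Gene length moved with the replicates. The median deviation from a gene's own mean in replicate 3 was 0.20 over 1657 tested genes shorter than 1000 nt and -0.09 over 4036 longer than 3000 nt, bounds chosen after the data were seen. After a smooth correction of each replicate for gene length the range of summed 7SL was 0.35, close to the median of 0.32 over all genes so corrected. Its adjusted p was then 1. The range of Rn7s1 was still 1.21 after the correction, with an adjusted p of 0.0255 by edgeR. The genes used to fit the correction included 7SL itself, so the corrected values of 7SL are not independent of the fit. In replicate 3 the deviation of summed 7SL was 0.55 before the correction and 0.15 after it. Whether the length trend produced the replicate differences of 7SL was not tested. Other RNA polymerase III transcripts were also highest in replicate 3, with deviations from their own means of 0.53 for Rn7sk, 0.63 for Rmrp and 0.76 for Rpph1, beside 0.55 for summed 7SL. None of these 3 passed the variability test, with adjusted p of 0.822, 0.398 and 0.101 by edgeR.

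Of the 8 protein members, 0 passed, and 0 had an unadjusted p under 0.05 by edgeR; with DESeq2 size factors in the same test the number passing was again 0. Over all genes tested 1.84% passed and 6.96% had an unadjusted p under 0.05. Their median range over replicates was 0.33, beside the 0.34 of all genes. Srprb was the steadiest, with a range of 0.02 (5.12, 5.12 and 5.14 on the log2 scale of CPM after TMM). Srp14 had the widest, 0.75, at 4.38, 4.73 and 5.13, with an adjusted p of 0.972 by edgeR. On this scale 7 of the 8 were highest in replicate 3, where 40.6% of all genes tested were, Srp54a being highest in replicate 2.

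For Srp14 the scale decides the picture. It was the most even member in TPM and the most uneven protein member in CPM after TMM. Srprb, the steadiest in CPM after TMM, had a log2 range of 0.63 in TPM, against 0.06 for Srp14. In TPM recomputed without genes of effective length under 100 nt Srp14 had 35.5, 41.9 and 40.7 TPM, lowest in replicate 1.

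**Figure D3:**
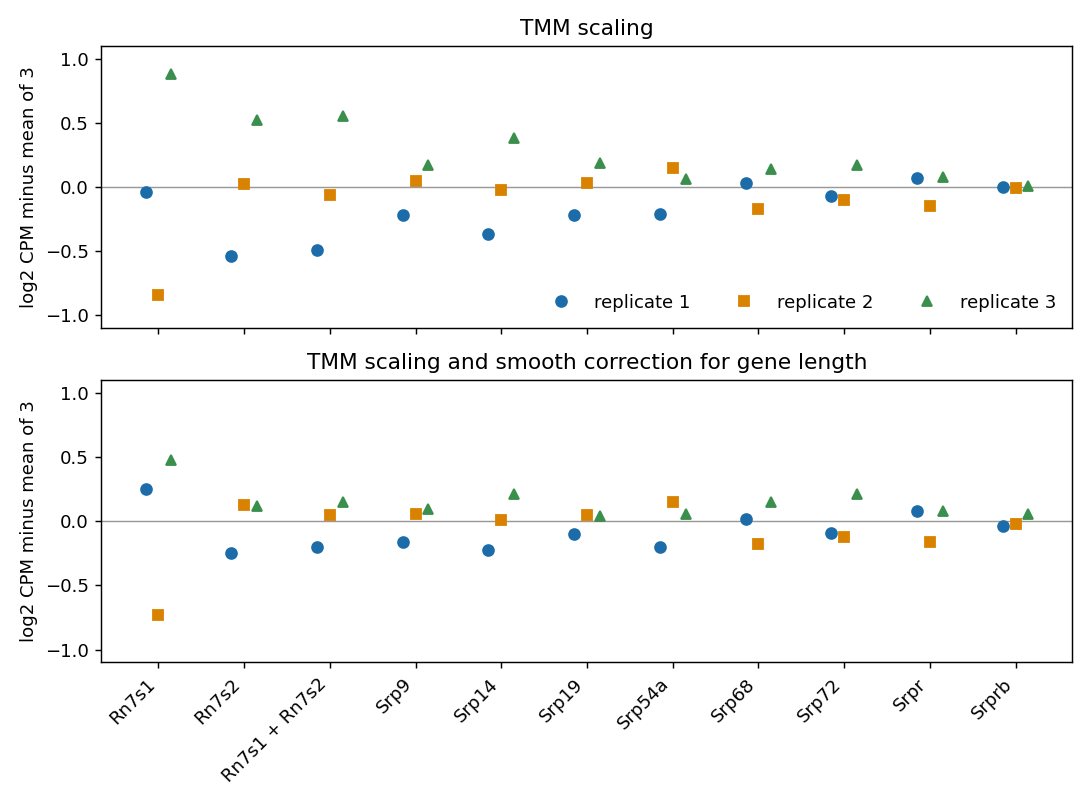
Log2 CPM of each gene minus its mean over the 3 replicates, after TMM scaling (upper panel) and after a further smooth correction for gene length (lower panel), 1 point per replicate. In the lower panel the summed 7SL points draw together to a range of 0.35, while Rn7s1 stays spread over 1.21 with replicate 2 lowest.

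Profiles were compared with those of 8286 other genes that averaged 100 counts or more. The genes whose deviations over the 3 replicates lay nearest to those of summed 7SL (Euclidean distance, which describes 3 libraries of 1 group) were Gm8741, Rpl37, Polr2j, Snrnp25 and Pfdn6. Their distances ran from 0.02 to 0.054. Their annotated lengths were 384 to 821 nt, and 4 of the 5 are protein-coding.

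Other genes of protein targeting to the ER, and factors of RNA polymerase III, were read in the same libraries. Of 61 listed genes that are not members, 60 reached a mean TPM of 1, as did 44.1% of all 21974 protein-coding genes. Above the 5.73 TPM median of the protein-coding genes that reached it lay 47 of the 61. In the variability test 0 of the 60 tested passed by edgeR, and 2, Sec61g and Tram2, had an unadjusted p under 0.05 (adjusted p of 0.637 and 0.0618 by edgeR). The shares over all genes were 1.84% and 6.96%.

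At the ribosome, the nascent polypeptide-associated complex, which competes with SRP for emerging chains, had the highest list median, 197.3 TPM over 3 genes. Naca stood at 249.4 ± 25.5 and Btf3 at 197.3 ± 19.3 TPM (SD, n = 3), each above every protein member of SRP in every replicate, while Btf3l4 was far lower at 35.7 ± 6.03 TPM (SD, n = 3). The translocon, the membrane channel that receives the chain, had a median of 19.5 TPM over 12 genes. Within it the channel subunits Sec61a1, Sec61b and Sec61g stood at 40.6 ± 11.4, 32.8 ± 2.48 and 18.5 ± 1.12 TPM (SD, n = 3). Ssr2, of the translocon-associated complex, was highest at 143.2 ± 24.9 TPM and Tram2 lowest at 1.60 ± 1.00 TPM (SD, n = 3).

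Enzymes that process the arriving chain were read next. The 5 genes of the signal peptidase complex had a median of 22.7 TPM, from Sec11c at 3.76 ± 0.322 to Spcs1 at 39.3 ± 5.33 TPM (SD, n = 3). The 12 genes of the oligosaccharyltransferase, which adds glycans, had a median of 32.3 TPM, with its catalytic subunits unequal: Stt3a at 105.4 ± 22.6 and Stt3b at 15.3 ± 4.81 TPM (SD, n = 3). For comparison, the medians were 12.1 TPM for the 6 SRP subunits and 11.4 TPM for the receptor pair. No test compared these lists.

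Routes that insert proteins without SRP were read beside it. The 7 genes of the GET route, which handles tail-anchored proteins, had a median of 8.83 TPM, with the targeting ATPase Asna1 highest at 65.5 ± 5.26 TPM (SD, n = 3). The 10 genes of the ER membrane protein complex had a median of 11.9 TPM. Of these Emc9 was the 1 listed gene under 1 TPM, at 0.57, 0.85 and 0.50 TPM, whereas its paralog Emc8 stood at 21.2 ± 2.58 TPM (SD, n = 3).

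The 10 factors that act on RNA polymerase III genes of the 7SL class had a median of 6.17 TPM. Ssb, the La protein that binds the ends of new polymerase III transcripts, was highest at 31.7 ± 2.87 TPM (SD, n = 3). Maf1, the repressor of that polymerase, stood at 8.78 ± 1.25 TPM and Brf1, a subunit of its initiation factor, at 3.30 ± 0.978 TPM (SD, n = 3).

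**Figure D4:**
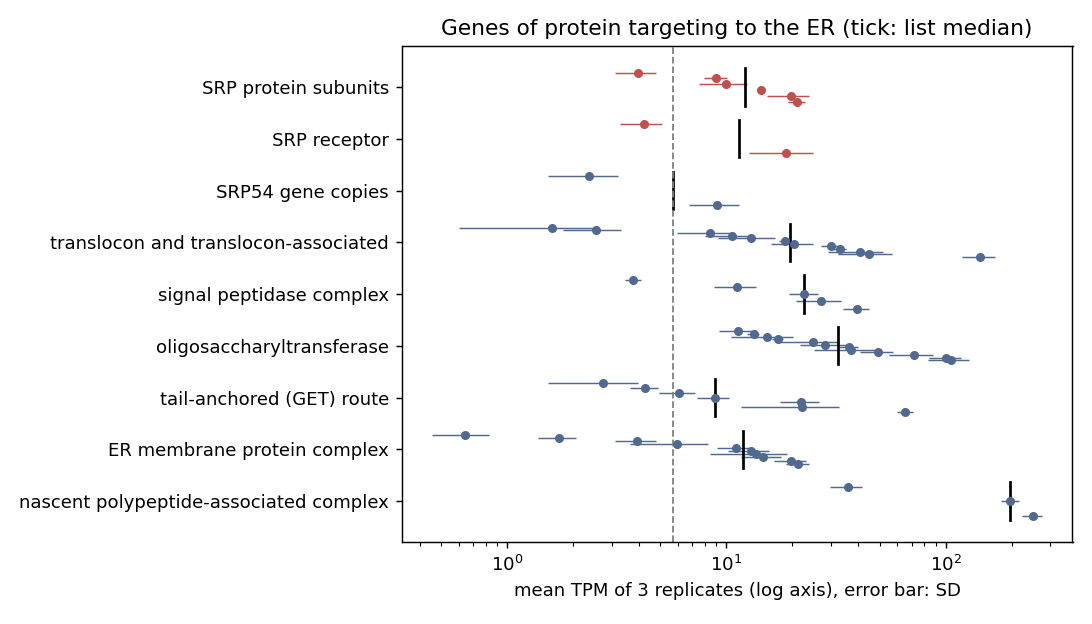
Mean TPM (log axis) of each listed protein-coding gene of protein targeting to the ER, grouped by step, with its SD over 3 replicates. Factors of RNA polymerase III and cell type markers are not shown. A black tick marks each list's median, and a dashed line marks 5.73 TPM, the median of expressed protein-coding genes. SRP subunits and receptor genes (red) lie from 3.95 to 21.0 TPM, below Naca and Btf3, which stand in the lowest row.

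Gene neighbours were read last. Rps29, a ribosomal protein gene on the opposite strand, starts 109 bp from Rn7s1 and had 473.6, 405.3 and 469.9 TPM, with no overlap of the annotated genes. A further head-to-head neighbour, 2700097O09Rik, starts 152 bp from Srp54a and had 11, 9.54 and 6.22 TPM. Tirap starts 116 bp from the annotated start of Srpr on the opposite strand and had 2.15, 1.88 and 1.22 TPM. No gene of the annotation other than overlapping microRNA records starts within 1000 bp of Rn7s2.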

How the data were processed

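RNA-seq of 3 replicates was analysed, grouped by title. Per the labels' protocols, DNase-digested total RNA went through rRNA depletion before directional library preparation. Per the submitters' processing notes, the tools include STAR and RSEM and the build is mm10. Versions, annotation release and strand setting are not given in the sources used here. Per the file headers, the authors deposited an expected count (an estimated count of reads) per gene, TPM scaled by effective length, and FPKM, which was not used. Library totals were 11420425, 6467405 and 5787357 counts. A floor of 3 counts is 0.263, 0.464 and 0.518 CPM.

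Gene names and positions came from GENCODE vM21 (GRCm38, the build of mm10), which matched 55227 of 55487 IDs. Near copies were found with blastn 2.17.0 (for protein members at 90% identity over 200 nt) and sequences read with samtools 1.23.1. Expected counts were rounded for edgeR 4.0.16 in R 4.3.3: intercept-only fit, filterByExpr, TMM, trended dispersion, deviance goodness-of-fit, Benjamini-Hochberg adjustment. The test was run on simulated data first. Alternatives used DESeq2 1.42.0 size factors, other filters, length scalings and replicates. Neighbouring levels were called separate where their ranges over 3 replicates did not overlap. The genes named are the 10 members, fixed lists of related genes and markers, genes starting within 1000 bp of a member, near copies of 7SL and the 5 genes nearest in profile; overlapping genes, pseudogenes and identical copies were named after their values were seen. Members and lists were chosen with earlier results of these data known. Python 3.11.15 and matplotlib 3.10.9 were used. The sequence of the 7SL RNA is not reported here.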

Additional observations from a re-analysis of the deposited data

How the results depend on the processing

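The 13 results were recomputed under 74 alternatives, 4 of which were chosen after seeing the data. Of these, 59 left the value within the allowed spread or on its side of the threshold, 14 moved it and 1 reversed it. Without length scaling, the log2 ratio of Srp9 to Srp14 turned from -0.68 to 0.34, that of Srpr to Srprb became 1.61, that of Srp68 to Srp72 became -1.23 and that of summed 7SL to the median subunit 8.68; the last was 10.8 with annotated lengths. The 7SL share was 3.59% of TPM in place of 1.68% of counts. The median difference between subunits and expressed protein-coding genes, 0.99, was 0.08 with a limit of 5 TPM, 3.18 without a filter, 0.22 with CPM, 0.65 with means and 1.26 with SRP54 copies summed, which also narrowed the subunit spread from 2.48 to 1.35. Without genes of effective length under 100 nt the mean TPM of every member was 2.70 to 2.76 times as high, so TPM values are relative to the very short RNAs counted. These changes follow from the lengths, gene sets or sums that define each alternative.

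The number of varying genes, 232, fell to between 63 and 93 when each replicate was left out in turn, where 2 libraries remain. Over its alternatives the adjusted p of summed 7SL ran from 0.191 to 1 by edgeR. The call of Rn7s1 was lost only without replicate 2, at an adjusted p of 0.885; the cause was not tested. No paired analysis was possible because all 3 tables come from 1 group, which leaves no second group to pair by replicate number. Depth limits Srp54a, Srp54b and Srp14, which had at most 245 counts in any replicate.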

Other observations

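Genes with identical annotated RNAs were not always given equal counts. The tables held 12 sets of single-transcript genes whose GENCODE vM21 sequences are the same and whose summed mean count is at least 100. In 3 of the 12 the copies agreed within 1% in every replicate, and in 9, Rn7s1 and Rn7s2 among them, they did not. The 7SL pair had the highest summed mean count of the 12, 124013.5, with 88.7% in Rn7s2. Of the sets named here after their values were seen, 2 sets of 4 genes, both carrying the names Rnu3b1, Rnu3b2, Rnu3b3 and Rnu3b4, shared their counts equally at 25% each. The pair Gm23444 and Gm23472 was also equal at 50%, whereas Gm22614 and Gm25890 had 94.7% in 1 copy.

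Each 7SL gene is overlapped on its own strand by 2 annotated microRNA records. These records stood at 0 TPM in every replicate, which cannot be read as absence of reads. Each spans fewer bases than the 132.8 to 147.3 nt by which the length of 7SL exceeded its effective length, so TPM is not informative for them. Gm47295, which reaches past the 3′ end of Rn7s1, held 58.2 estimated counts in replicate 1 and 0 in replicates 2 and 3. Gm47299, which likewise reaches past the 3′ end of Rn7s2, held 0 in all 3 replicates, as did Gm47287 and Gm47305.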
